A study of Mus musculus and Homo sapiens with 12 samples.

Results

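In CCD841 cells treated with NaBu, 6791 regions carried H3K18bu, H4K12bu or both at the start of a protein-coding gene. They were found by merging all peaks of the 4 CCD841 CUT&Tag libraries where they shared at least 1 bp, keeping each merged region with a peak from both replicates of a mark, and taking those with a base within 1 kb of the start of 1 of the 20033 protein-coding genes of GENCODE 44 on GRCh38. Of 547275 merged regions, 160182 were kept, so the promoter regions were 4.24% of the kept regions, with 3.64 of 81.0 Mb. A region is called H3K18bu only, H4K12bu only or both marks by the marks with a peak in both replicates. The regions were thus chosen by the listed peaks of the same 4 libraries, and their number, peak strength and width are given as a description, with no test.

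CCD841 cells are a line established from the epithelium of a normal human colon. All 4 libraries came from cells given 1 mM NaBu (sodium butyrate), for 12 to 16 h by the labels and 12 h by the study's methods, with 2 replicates for H3K18bu and 2 for H4K12bu. No untreated library and no acetyl library of these cells was analysed here, so nothing below compares treated with untreated cells or butyrylation with acetylation. The labels do not say whether the replicates came from separate cultures, and a test of 2 libraries against 2 cannot give a two-sided exact p below 0.333.

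Butyrylation adds a 4-carbon acyl group to lysine, from butyryl-CoA, which intestinal cells can make from the butyrate that gut bacteria release by fermenting fiber. Lysine 18 of histone H3 and lysine 12 of histone H4 lie in the tails that leave the nucleosome and are better known for acetylation, which marks active promoters and enhancers. In CUT&Tag an antibody brings a transposase to the mark, and the transposase cuts and tags the DNA around it, so that DNA open to the enzyme is also cut more readily.

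H4K12bu replicate 2 stood apart from the other libraries. Each list held close to the limit of 300000 peaks, between 299296 and 299720, but the peaks of H4K12bu replicate 2 were weaker: their median pileup (the number of overlapping extended read ends at the summit) was 7, against 15, 12 and 15 in H3K18bu replicates 1 and 2 and H4K12bu replicate 1. Only 56.3% of its peaks had q below 0.05, against 100% in each of the other 3. Its lowest background, which follows sequencing depth, was 0.788 read ends, against 1.40, 1.12 and 1.55. Every call of H4K12bu below needs a peak in this shallow library, so the shares, positions and CpG content of the classes are also given without it, replicate 1 alone then calling the mark. The class counts within gene lists and the pileups were not recomputed this way.

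The start windows of 3 of the 4 regions with the highest score in each class of 1 mark, and of 2 of the 4 with both marks, are shown, as the gene starts next to strong regions of that class. The region covers the whole window at PCTP, ODF3L1, EEF2KMT and ALKBH3 and 68 of its 200 bases at FCMR, while at SPDYE18, AOC2 and TEAD2 it lies within 1 kb of the start but outside the window. The score is the lowest, over the libraries that define the class, of the highest −log10 p of the library in the region. Each window runs 5′ to 3′ on the strand of the gene from 180 bases before the start to 20 bases from it on, in GRCh38. Capitals mark a match, on either strand, to the letters CCAAT, the GC box GGGCGG, the TATA box TATAAA, the AP-1 site TGANTCA, the ETS site CCGGAAG, the NRF1 site GCATGCG, the YY1 site ATGGCGG or the CRE (cyclic AMP response element) TGACGTC, and overlapping matches run together.
H3K18bu only, PCTP at chr17:55750871-55751070 (plus strand), ODF3L1 at chr15:75723861-75724060 (plus strand) and EEF2KMT at chr16:5097776-5097975 (minus strand).
PCTP: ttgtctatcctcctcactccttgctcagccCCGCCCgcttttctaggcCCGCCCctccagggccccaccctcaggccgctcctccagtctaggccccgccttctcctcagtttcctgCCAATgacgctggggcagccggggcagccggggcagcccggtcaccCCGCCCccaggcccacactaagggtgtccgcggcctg
ODF3L1: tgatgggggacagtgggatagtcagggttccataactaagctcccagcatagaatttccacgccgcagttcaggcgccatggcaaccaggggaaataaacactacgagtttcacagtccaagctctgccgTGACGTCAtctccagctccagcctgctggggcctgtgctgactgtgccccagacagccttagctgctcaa
EEF2KMT: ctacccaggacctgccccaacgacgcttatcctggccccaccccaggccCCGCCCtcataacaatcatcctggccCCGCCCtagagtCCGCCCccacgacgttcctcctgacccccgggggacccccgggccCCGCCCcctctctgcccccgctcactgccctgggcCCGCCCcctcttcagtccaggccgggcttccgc
H4K12bu only, SPDYE18 at chr7:77062539-77062738 (minus strand), AOC2 at chr17:42844400-42844599 (plus strand) and ALKBH3 at chr11:43880631-43880830 (plus strand).
SPDYE18: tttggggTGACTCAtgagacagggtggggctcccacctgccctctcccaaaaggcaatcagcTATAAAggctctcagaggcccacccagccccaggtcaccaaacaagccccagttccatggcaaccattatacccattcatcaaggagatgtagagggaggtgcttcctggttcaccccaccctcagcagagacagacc
AOC2: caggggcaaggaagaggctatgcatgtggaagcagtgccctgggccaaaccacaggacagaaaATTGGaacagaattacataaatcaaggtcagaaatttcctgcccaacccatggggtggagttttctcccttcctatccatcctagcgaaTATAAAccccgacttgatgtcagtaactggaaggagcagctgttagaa
ALKBH3: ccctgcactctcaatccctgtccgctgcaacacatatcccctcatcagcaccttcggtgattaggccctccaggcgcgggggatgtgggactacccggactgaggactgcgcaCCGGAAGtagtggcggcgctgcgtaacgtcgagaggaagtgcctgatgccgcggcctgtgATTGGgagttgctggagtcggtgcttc
Both marks, FCMR at chr1:206923228-206923427 (minus strand) and TEAD2 at chr19:49362438-49362637 (minus strand).
FCMR: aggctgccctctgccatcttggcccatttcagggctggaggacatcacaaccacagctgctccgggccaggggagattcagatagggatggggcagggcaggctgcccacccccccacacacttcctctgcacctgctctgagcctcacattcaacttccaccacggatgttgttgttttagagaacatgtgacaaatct
TEAD2: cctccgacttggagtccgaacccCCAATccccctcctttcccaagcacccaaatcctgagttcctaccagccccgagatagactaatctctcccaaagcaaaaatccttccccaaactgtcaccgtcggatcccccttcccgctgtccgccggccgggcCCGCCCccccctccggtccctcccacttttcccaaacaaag
The windows differed widely in CpG. EEF2KMT held 14 CpG dinucleotides and 5 GC boxes in 200 bases and PCTP 12 and 3. ALKBH3 held 15 CpG and TEAD2 11, whereas ODF3L1 held 6, FCMR and AOC2 2 each and SPDYE18 0, so each class had windows rich and poor in CpG. AOC2 carried a TATA box from 28 bases before its start, and ODF3L1 a CRE, matched on both strands from 50 bases before its start. A match is a description of the letters and not a bound site.

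Among regions called H3K18bu only, that with the highest score lay over the start of DSEL, which encodes a protein related to dermatan sulfate epimerase. Its highest −log10 p was 35.2 and 47.1 in the H3K18bu replicates and 23.9 in H4K12bu replicate 1, with no peak in H4K12bu replicate 2, and its summits lay at −190, −211 and −186 bases from the start (negative is upstream). PCTP, the phosphatidylcholine transfer protein, had 29.6 and 35.4 for H3K18bu, 21.7 in H4K12bu replicate 1 and no peak in H4K12bu replicate 2. At ODF3L1, named for the outer dense fibers of sperm tails, the values were 29.2, 42.8 and 10.7, with no peak in H4K12bu replicate 2, and the 3 summits lay at −16, −15 and −14 bases from the start, downstream of the CRE in the window shown. So 3 of the leading regions called H3K18bu only also had a peak in the deeper H4K12bu library, and it is the shallow library that keeps them out of the class with both marks. EEF2KMT, whose product methylates elongation factor 2, had 25.9 and 27.2 for H3K18bu and no peak in either H4K12bu library.

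Among regions called H4K12bu only, the strongest had −log10 p of 42.1 and 17.0 in the H4K12bu replicates and 5.72 in H3K18bu replicate 2, and lay 985 bases upstream of SPDYE18, one of a family of near-identical genes, so its reads may belong to a relative. RAD54B, a DNA repair gene, had 22.1 and 14.7 for H4K12bu, no peak in H3K18bu replicate 1 and 15.4 in H3K18bu replicate 2. AOC2, an amine oxidase, had 15.7 and 12.6 for H4K12bu and no peak for H3K18bu, with summits 796 and 793 bases downstream of its start. ALKBH3, which repairs alkylated bases, had 17.2 and 11.6 for H4K12bu with summits 50 and 49 bases after the start, and 7.47 in H3K18bu replicate 1. The leading regions of this class were weaker in score than those of the other classes. The shallow H4K12bu replicate 2 enters this score but not that of H3K18bu only, so the scores of these classes are not like for like. In each class of 1 mark, 4 of the 5 had a peak in 1 library of the other mark.

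With both marks, FCMR, an Fc receptor for IgM, had −log10 p of 25.4 and 23.2 for H3K18bu and 25.2 and 24.1 for H4K12bu, the most even of the leading regions. TP53I3, a p53 target that encodes a quinone oxidoreductase, had 101 and 51.2 for H3K18bu and 52.5 and 22.7 for H4K12bu, but its region began 941 bases downstream of the start, with summits 1461 to 1482 bases into the gene. TEAD2, a transcription factor of the Hippo pathway, had 52.3 and 48.6 against 33.0 and 20.2, from a region 965 bases upstream. IP6K2, an inositol hexakisphosphate kinase, had 33.8 and 23.2 against 38.7 and 17.1, with all 4 summits 270 to 272 bases after the start. At these genes H4K12bu replicate 2 gave the lowest value in 3 of the 4 named, and FCMR, whose values differed least, was the exception.

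**Figure D1:**
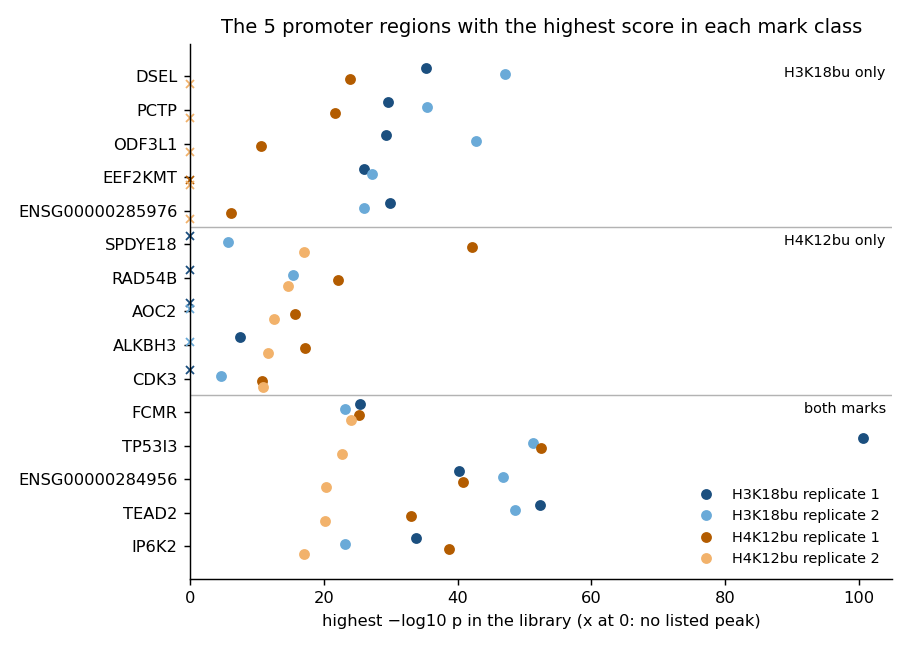
Highest −log10 p of each library (x axis) at the 5 promoter regions with the highest score in each mark class, 1 point per library and a cross at 0 where the library has no peak. The regions called H3K18bu only have no H4K12bu replicate 2 point, while 4 of them have an H4K12bu replicate 1 point between 6.13 and 23.9.

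Of the 6791 promoter regions, 4028 (59.3%) were H3K18bu only, 740 (10.9%) H4K12bu only and 2023 (29.8%) both. Kept regions away from protein-coding starts, 153391 in all, were 42.8% H3K18bu only, 33.6% H4K12bu only and 23.6% both. Regions inside a protein-coding gene but away from its start were 41.5% H4K12bu only (n = 96890), and those outside protein-coding genes 20.2% (n = 56501). The 3643 regions at starts of long non-coding RNAs alone, which are among the last 2 sets, stood between, with 24.5%. Put the other way, 5.78% of all H3K18bu only regions, 5.30% of those with both marks and 1.41% of those with H4K12bu only lay at a protein-coding start. Without H4K12bu replicate 2, replicate 1 alone calling the mark, H4K12bu only made up 26.7% of promoter regions and 57.9% of the others. Without H4K12bu replicate 1, replicate 2 alone calling the mark, it made up 34.3% and 67.8%. At starts it made up 4.79% without H3K18bu replicate 1 and 6.24% without H3K18bu replicate 2. The share of H4K12bu only thus moved whichever library was left out, while it stayed lower at starts. The loss of a library and the call from 1 replicate were not tested apart.

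The same order was seen in single libraries, which do not use the consensus. Within 1 kb of a protein-coding start lay 4.25% and 4.61% of the merged regions of the H3K18bu replicates and 2.78% and 2.19% of those of the H4K12bu replicates. The groups did not overlap, with a difference of 1.94 percentage points (exact permutation of the libraries, two-sided, p = 0.333, which no split of 2 against 2 can undercut). Many calls of 1 mark only were not clean. Of the H3K18bu only regions 1954 (48.5%) had a peak in 1 H4K12bu library and 2074 (51.5%) in none. Of the H4K12bu only regions 385 (52.0%) had a peak in 1 H3K18bu library and 355 (48.0%) in none.

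**Figure D2:**
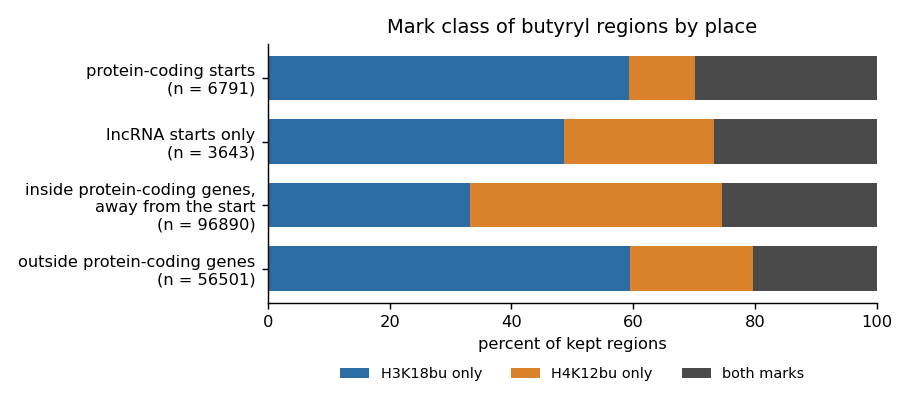
Share of kept regions (x axis, percent) in each mark class, by place, with the number of regions in parentheses. H4K12bu only takes 10.9% at protein-coding starts and 41.5% inside protein-coding genes away from the start, and the lncRNA set is part of the lower 2 bars.

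Promoter regions were between 73 and 2709 bp wide. The median was 448.5 bp for H3K18bu only, 396 bp for H4K12bu only and 647 bp for both marks, against 388, 386 and 679 bp for the same classes away from starts. Over all classes it was 496 bp, and 301 bp without H3K18bu replicate 1. The widest region with both marks, 2709 bp, lay 296 bases downstream of the start of TSC22D2, where −log10 p reached 17.8 and 11.7 in the H3K18bu libraries and 5.65 and 5.74 in those of H4K12bu. CAMK2D, a calcium/calmodulin-dependent kinase subunit, had the widest H3K18bu only region, 2567 bp, in which the strongest summits of the replicates lay at 795 and −369 bases from the start. MOB2 had the widest H4K12bu only region, 1927 bp. Such wide regions join several peaks, and the strongest peak of each library need not be the same.

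The peaks at promoters had a higher median fold over their local background than those elsewhere in all 4 libraries, but a lower median pileup. In H3K18bu replicate 1 the median fold over background, (pileup + 1) / (background + 1), was 5.31 at promoter regions and 4.58 away from starts, while the median pileup was 15 and 17. In H3K18bu replicate 2 the fold was 5.10 and 4.27, with pileups of 12 and 13. In H4K12bu replicate 1 it was 4.71 and 4.25, with pileups of 13 and 16, and in H4K12bu replicate 2 it was 3.82 and 3.65, with pileups of 7 and 8. For regions with both marks the median of the highest −log10 p in the H3K18bu replicates was 12.6 and 10.7, against 8.44 and 7.24 for H3K18bu only. In H4K12bu replicate 1 it was 8.92 against 7.03 for H4K12bu only, and in H4K12bu replicate 2 the medians lay close, at 4.73 and 4.46. The peaks of these same libraries set the classes. The value is also the highest of all peaks in a region, and regions with both marks were wider (median 647 bp, against 448.5 and 396 bp). The part of either in these differences was not tested.

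Most promoter regions, 4192 (61.7%), covered the start itself, 959 (14.1%) lay wholly upstream and 1640 (24.1%) wholly downstream. The start was covered by 74.5% of the regions with both marks, 58.8% of those with H3K18bu only and 43.0% of those with H4K12bu only, and without H4K12bu replicate 2 by 72.3%, 53.4% and 36.2%. The strongest summit of each library (the position of highest pileup) gathered just before the start. In H3K18bu replicate 1, 20.7% of summits lay in the 100 bases before the start, 15.2% in the 100 bases from the start on, 4.48% in the next 100 and 5.63% in the 100 after that. The first of these shares was 21.3%, 21.6% and 18.8% in H3K18bu replicate 2 and the H4K12bu replicates. Past 100 bases downstream all 4 profiles fell to a shoulder that declined slowly over the next 900 bases, whereas upstream they fell away within about 500.

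Summits lay downstream of the nearest start in 47.9% and 47.3% of the regions with a peak in the H3K18bu replicates and in 45.3% and 46.2% for H4K12bu (difference 1.87 percentage points, two-sided exact permutation test, p = 0.333). With the starts of every protein-coding transcript the difference turned to −3.64 points (p = 0.333 in the same exact test). Their median distance from the start was 179 bases in each H3K18bu replicate, and 167 and 203.5 bases in the H4K12bu replicates (difference −6.25 bases, p = 1 in the same exact test), where the H4K12bu values lay on both sides of the H3K18bu ones. These values rest on different regions for each mark. Over the 2023 regions with both marks the differences were 0.89 points (p = 0.333) and −11.5 bases (p = 0.667 in the same exact permutation test). Within a region, the strongest summits of the H3K18bu replicates were 22 bases apart at the median (6051 regions) and those of H3K18bu replicate 1 and H4K12bu replicate 1 were 23 bases apart (3475 regions), a distance like that between the replicates of H3K18bu. H3K18bu replicate 2 and H4K12bu replicate 1 were 26 bases apart (3538 regions). Pairs with H4K12bu replicate 2 were farther apart whatever the mark, at 49 bases from H4K12bu replicate 1 (2763 regions) and 57 and 64 bases from the H3K18bu replicates (2847 and 2910 regions). Regions with H4K12bu only were the exception in position: their summits lay 303.5 and 296 bases from the start at the median in the H4K12bu replicates, and 51.5% and 51.1% of them lay downstream. Without H4K12bu replicate 2 these values were 284 bases and 50.2% in H4K12bu replicate 1.

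**Figure D3:**
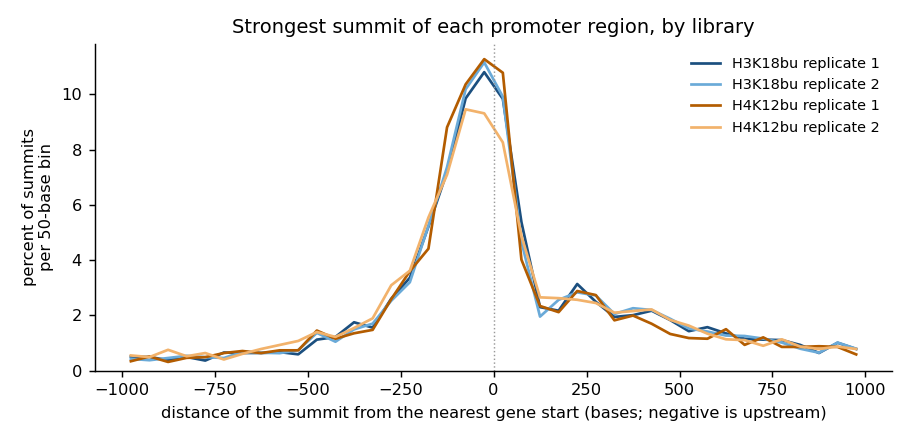
Percent of promoter regions with a peak in the library whose strongest summit falls in each 50-base bin (y axis) by distance from the nearest protein-coding start (x axis, bases), 1 line per library. All 4 lines peak just before the start, drop by 100 bases after it and run on as a shoulder downstream.

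A promoter region lay at 6994 of the 20033 protein-coding genes (34.9%). H3K18bu only was found at 3934 genes (19.6%), H4K12bu only at 689 (3.44%) and both marks at 2371 (11.8%), and at 52 of the last the marks lay in separate regions. Without H4K12bu replicate 2, replicate 1 alone calling the mark, these classes held 2475 (12.4%), 1812 (9.05%) and 3822 genes (19.1%). The class counts thus changed much, but the loss of that library and the call from 1 replicate were not tested apart. The shares with both replicates are the background for the gene groups below. At 755 genes there were 2 or more regions, and 932 regions (13.7%) served 2 or more genes. Of the genes named below, EIF2AK3 (with RPIA), SETDB2 (CAB39L), KDM1A (TEX46), CBX3 (HNRNPA2B1), PCNA (CDS2), RPS12 (SLC18B1), S100A4 (S100A3) and NDUFA11 (VMAC and others) share the region described with the start of another gene, so its values are not those of 1 gene alone. Genes in divergent pairs, whose starts face away from each other within 1 kb, had a region in 49.0% of 1710 cases, against 33.6% of other genes. In such a pair 1 region can count for both genes, so these shares are not like for like. By autosome the share ran from 28.0% of the 1476 genes of chromosome 19 to 41.2% of the 1081 genes of chromosome 3.

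Genes with H3K18bu at the start had more CpG there than genes without a region. CpG observed over expected, from 500 bases before to 500 after the start, had a median of 0.756 at H3K18bu only genes, 0.736 at genes with both marks, 0.591 at H4K12bu only genes and 0.640 at genes without a region. Without H4K12bu replicate 2 the medians were 0.753, 0.745, 0.651 and 0.635 in that order, so H4K12bu only genes fell on the other side of genes without a region. Replicate 1 alone then called the mark, and the loss of that library and the looser call were not tested apart. The reference sequence did not enter the choice of regions, but genes are not replicates and no test was made. Of 11609 CpG-rich starts (observed over expected at least 0.6 and GC at least 50%) 42.0% had a region, and of the other 8424 starts 25.1%. H4K12bu only went the other way, with 2.77% of the CpG-rich and 4.37% of the other starts, and 8.31% and 10.1% without H4K12bu replicate 2. This class leaves out starts where H3K18bu was also called, so it does not stand for the mark as a whole. Both marks were at 14.8% of the CpG-rich and 7.76% of the other starts. In the H4K12bu replicates taken singly, median CpG observed over expected was higher at genes with a peak than without, by 0.0592 and 0.0189. In the H3K18bu replicates it was higher by 0.104 and 0.153. The share of genes with any region was not highest where CpG was. It was 19.6% in the lowest of 10 equal groups of genes, 43.9% in group 7 and 37.7% in group 10. Between groups 7 and 10 the share with both marks went from 16.7% to 10.2% and that with H3K18bu only from 24.7% to 26.1%.

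**Figure D4:**
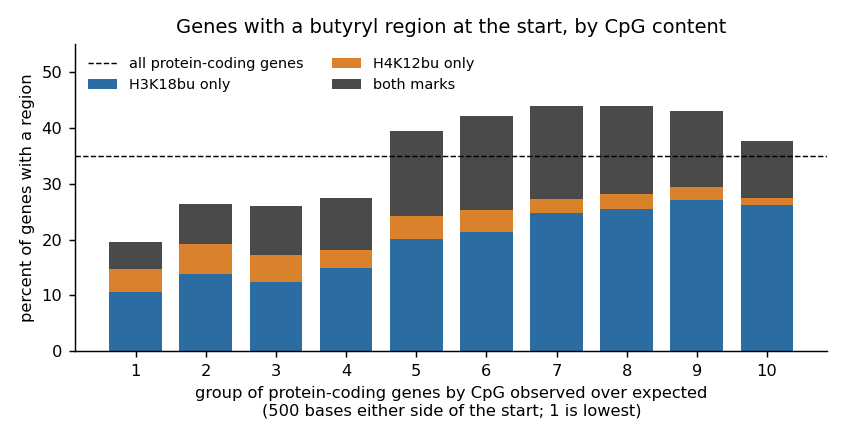
Percent of protein-coding genes with a promoter region (y axis), stacked by mark class, in 10 equal groups of genes ordered by CpG observed over expected at the start (x axis), with the share over all genes dashed. The total is lowest at 19.6% in group 1 and is 37.7% in group 10, below groups 5 to 9.

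Motif letters were compared over the 250 bases before and 50 after the start, on both strands. A GC box was found at 60.8% of genes with a region and 48.0% of those without (52.4% of all starts), and within CpG-rich starts the shares were 75.4% and 74.7%. CCAAT was found at 37.3% and 35.2% (35.9% of all), and within CpG-rich starts at 39.5% and 32.0%, but over 500 bases either side of all starts the first order turned, to 65.1% and 66.0%. The CCAAT share was highest, 41.2%, at genes with both marks and 31.9% at H4K12bu only genes, and without H4K12bu replicate 2 these were 39.4% and 34.4%. TATAAA was less frequent at genes with a region, 7.54% against 12.5% (10.8% of all). TGANTCA, the site of AP-1, was at 6.01% and 6.59% (6.38% of all). The ETS letters CCGGAAG stood at 14.4% and 10.5% (11.9% of all), the NRF1 letters GCATGCG at 5.99% and 3.90% (4.63%), the CRE letters TGACGTC at 5.26% and 3.43% (4.07%) and the YY1 letters ATGGCGG at 6.42% and 5.43% (5.78%). Within CpG-rich starts TATAAA was at 4.69% and 5.53%, the ETS letters at 18.7% and 16.7%, those of NRF1 at 7.73% and 5.81% and those of the CRE at 6.54% and 5.11%, in the same direction. There AP-1 and YY1 turned, to 3.57% and 3.14% for AP-1 and to 8.30% and 8.77% for YY1. Over 500 bases either side of CpG-rich starts TATAAA turned as well, to 16.2% and 15.6%, and YY1 turned back, to 22.7% and 22.1%. No match says only that these letters are not in the window.

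The labelled cell type was checked against marker genes. Of 20 markers of epithelium 3 had a promoter region (15.0%, against 34.9% of all genes): VIL1, a microvillus protein, with H3K18bu only, and KRT8 and KRT18, paired keratins, which share 1 H4K12bu only region. At VIL1 the highest −log10 p was 6.72 and 6.59 in the H3K18bu replicates with no H4K12bu peak, and at KRT8 it was 5.58 in H3K18bu replicate 2 and 5.05 and 4.13 in the H4K12bu replicates. No library had a peak at 9 of the 20, namely CDH1, CDX1, CDX2, ELF3, EPCAM, ESRP1, GRHL2, KRT19 and KRT20, among them the defining adhesion genes and the intestinal homeobox factors. The summed pileup of the list, added up gene by gene, was 32, 68, 26 and 52 in H3K18bu replicates 1 and 2 and H4K12bu replicates 1 and 2. The peaks shared by KRT8 and KRT18 entered these sums once for each gene. In H4K12bu replicate 1 the whole sum is 1 such peak, of 13 read ends. Summed pileups were 205, 196, 112 and 45 for the 23 mesenchymal markers. Of these markers 8 had a region (34.8%, against 34.9% of all genes), 4 of them with both marks. S100A4 had the highest pileup of these in every library, with 49, 35, 44 and 13 read ends and −log10 p of 22.8, 15.3, 21.9 and 5.79, while FAP, FN1 and COL1A2 led the list in score. VIM, DCN, PDGFRB, POSTN, THY1, COL6A1 and ZEB2 had no peak in any library. Endothelial and immune lists each had 4 of 10, smooth muscle genes 3 of 10, and neural and glial genes 1 of 10. Their summed pileups, in the same library order, were 94, 90, 39 and 25 (endothelial) and 68, 55, 46 and 31 (immune). Those of smooth muscle genes were 49, 88, 42 and 21, and those of neural and glial genes 37, 24, 0 and 14. The marker lists differ in size, so their sums are not like for like. The peak lists hold marks on chromatin and not RNA. Each stops at its own lowest p, so a gene without a peak is not shown to be unmarked or silent.

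The list of AP-1 and immediate early genes, most of them transcription factors, had a region at 10 of 16 genes (62.5%), 7 with H3K18bu only and 3 with both. JUN was the strongest in H3K18bu, with −log10 p of 31.1 and 18.5, against 7.73 and 3.70 for H4K12bu. FOSL2 had 17.4 and 10.6 for H3K18bu and 8.13 and 5.47 for H4K12bu, with all 4 summits 360 to 374 bases after the start. FOSL1 had 11.4 and 9.04 for H3K18bu, and 3.72 in H4K12bu replicate 2 alone. FOS had 8.78 and 5.31 for H3K18bu, with summits at −267 and −268 bases from the start, and no H4K12bu peak. MYC was not among the 10: it had a peak in H3K18bu replicate 1 (5.85) and in H4K12bu replicate 2 (4.72), but in no mark both replicates. JUNB had a peak in H3K18bu replicate 2 alone (4.62).

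The genes of the Wnt and TGF-beta pathways were near the background, with 7 of 23 (30.4%). Among the 7 were the receptors TGFBR1 with −log10 p of 17.8 and 13.3 for H3K18bu and 8.92 in H4K12bu replicate 1, and TGFBR2 with 13.7, 15.9, 10.9 and 7.22 over the 4 libraries. GSK3B, the kinase that marks β-catenin for destruction, had 34.8, 28.9, 15.2 and 9.05, with its 4 summits 457 or 458 bases after the start. AXIN1, its scaffold, had 9.88 and 8.43 for H3K18bu and 4.65 in H4K12bu replicate 2. AXIN2 had no region. β-catenin itself (CTNNB1), LEF1 and SMAD3 had no peak in any library, TCF20 had 1 in H3K18bu replicate 2 (4.58) and SMAD2 had 1 in H3K18bu replicate 2 (5.55) and in H4K12bu replicate 1 (6.13). The Krüppel-like and SP factors had 7 of 18 (38.9%), led by KLF6 with 22.8 and 23.1 for H3K18bu and 6.44 in H4K12bu replicate 1, while KLF5 and KLF14 had no peak in any library. Of the adherens and cell-substrate junction genes 11 of 23 (47.8%) had a region, 10 with H3K18bu only. Among these were NECTIN2 (10.4 and 16.7 for H3K18bu) and ACTN4 (11.3 and 8.43 for H3K18bu, and 8.22 in H4K12bu replicate 1).

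Protein handling in the endoplasmic reticulum had the highest share of the lists, 13 of 20 genes (65%, and 70% without H4K12bu replicate 2, below the 73.5% of aminoacyl-tRNA synthetases), of which 7 carried both marks. Of its stress sensors, EIF2AK3 (PERK) had −log10 p of 21.5, 12.6, 11.3 and 10.2 in the 4 libraries, ERN1 (IRE1) had 14.9 and 10.6 for H3K18bu and 5.35 in H4K12bu replicate 2, and ATF6 had no region. HERPUD1, of ER-associated degradation, had 6.54 and 11.8 for H3K18bu and 7.96 in H4K12bu replicate 1. Aminoacyl-tRNA synthetases, which charge tRNAs, had 20 of 34 (58.8%), 10 with both marks, and proteasome subunits 19 of 39 (48.7%), 10 with both, and 69.2% of them had a region without H4K12bu replicate 2. Genes of H3K9 methylation and its removal had 11 of 18 (61.1%), among them CBX3, an HP1 protein that binds methylated H3K9 (12.6 and 11.8 for H3K18bu alone), SETDB2, of the SET-domain methyltransferases (29.9, 21.1, 29.9 and 9.72), and KDM1A, a demethylase (11.5 and 7.50 for H3K18bu alone). Deacetylases and sirtuins, which remove acyl groups, had 7 of 17 (41.2%, and 58.8% against a background of 40.5% without H4K12bu replicate 2), led by HDAC6 with 20.8 and 25.1 for H3K18bu and 5.11 in H4K12bu replicate 1, and acyltransferases with acyl-CoA supply, which add them, had 7 of 19 (36.8%), where EP300 had 15.7, 14.1, 7.96 and 6.80 upstream of its start.

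Of the other genes used by every cell, cytosolic ribosomal proteins had a region at 34 of 80 (42.5%), mitochondrial ribosomal proteins at 32 of 78 (41.0%) and nuclear genes of oxidative phosphorylation at 34 of 82 (41.5%). In the last, 18 (22.0%) carried both marks, against 11.8% of all genes and 11.2% of the cytosolic ribosomal proteins. RPS12 led the cytosolic ribosomal proteins with 13.3 and 12.4 for H3K18bu and 3.77 in H4K12bu replicate 2, and NDUFA11, of respiratory complex I, had 42.2, 37.3, 14.7 and 7.34. Cell cycle and replication genes had 9 of 24 (37.5%), with PCNA, the replication clamp, at 16.0, 14.3, 11.8 and 6.05 and CDKN1A, the inhibitor p21, at 7.45 and 8.68 for H3K18bu and 5.40 in H4K12bu replicate 1. Endosome to lysosome genes had 7 of 21 (33.3%).

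Several other lists had low shares. The replication-dependent histones, active in S phase, had 6 of 69 (8.70%) and HOX genes 4 of 39 (10.3%), where the regions at HOXC6, HOXD13, HOXB9 and HOXC4 lay 340, 406, 917 and 981 bases downstream of the start. Collagens had 8 of 44 (18.2%), led by COL4A1 with 11.7 and 15.9 for H3K18bu and 7.53 in H4K12bu replicate 1. Genes named ZNF had 142 of 508 (28.0%). Families that a colon cell is not known to use were marked at times: olfactory receptors had 45 of 400 (11.2%), with 17 H4K12bu only, 17 H3K18bu only and 11 both, and OR52W1 reached 36.4, 31.4, 13.7 and 11.6. Keratin-associated proteins had 27 of 94 (28.7%), taste receptors 4 of 27 (14.8%), liver secreted proteins 5 of 18 (27.8%), ion transport genes 5 of 22 (22.7%), photoreceptor and lens genes 3 of 12 (25%), germline genes 1 of 12 (8.33%) and beta defensins 0 of 40. Histones, olfactory receptors, keratin-associated proteins and beta defensins are families with close copies, for which reads may be shared or dropped between genes.

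**Figure D5:**
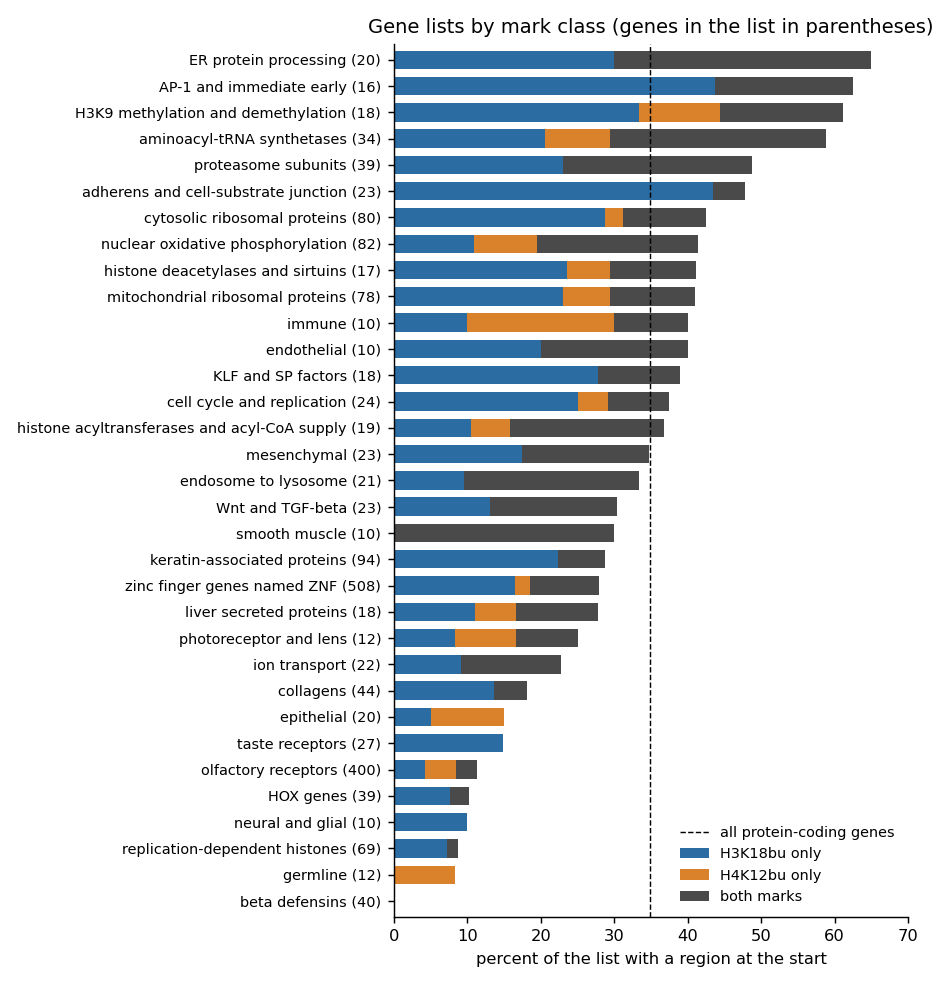
Percent of the protein-coding genes of each list with a promoter region (x axis), stacked by mark class, with the share over all protein-coding genes (34.9%) dashed and the number of genes in parentheses. ER protein processing reaches 65% and beta defensins 0, and most lists of 20 or fewer genes move by several points with each gene.

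The same genes were looked up in mouse large intestine, in 8 libraries from homogenized tissue that did not enter the choice. They came from male CETP-ApoB-100 transgenic mice, by the labels on a high fat, high sucrose diet for the acetyl libraries and on that diet with 5% arabinoxylan, a cereal fiber, for the butyryl libraries. The study's methods instead give a low fat diet to the control mice and arabinoxylan to those on the high fat, high sucrose diet, so what the acetyl mice ate is unsure, and diet and acyl group cannot be told apart. Of the human genes, 15992 had a mouse protein-coding gene of the same symbol, 5946 of them with a human promoter region. A listed mouse peak lay within 1 kb of either gene end more often for those 5946 than for the other 10046 in each of the 8 libraries, by 11.4 ± 1.63 percentage points (SD, n = 8). The SD is over libraries and not animals, as the number of mice behind them is not known here. In the H3K18bu replicates the shares were 38.7% and 34.6% for genes with a region against 28.4% and 24.7%, and in the H4K12bu replicates 46.4% and 64.1% against 33.1% and 49.4%. The shares in the acetyl libraries were 72.9% and 68.9% against 61.8% and 57.9% for H3K18ac and 67.6% and 79.0% against 57.0% and 68.3% for H4K12ac. With only mouse peaks of q below 0.05 the acetyl libraries differed by 6.81, 8.90, 6.84 and 12.0 points and the butyryl libraries by 1.05, 0.676, 1.73 and 4.98, where few butyryl peaks were left. With all peaks, genes with both human marks had the highest share in each of the 8 libraries, for example 50.5% and 68.9% for mouse H4K12bu. CpG at the human start differed between these groups of genes, as given above, and its part in this was not tested.

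The 1 kb limit of the window cut through a smooth distribution: 167 kept regions had their nearest edge in the last 100 bases inside the limit and 170 in the first 100 bases outside it. The regions at IZUMO1R and FBXO17 lay 1000 bases from the start, just inside, and those nearest ARL11 and CYB5B 1002 bases, just outside. Their highest −log10 p in the H3K18bu replicates was 7.10 and 5.55, 8.23 and 5.04, 8.89 and 4.84, and 7.72 and 6.16 in that order.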

How the data were processed

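The authors demultiplexed and trimmed the reads with bcl2fastq 2.17.1 and cutadapt 1.9.1, aligned them to hg38 with Bowtie2 2.3.1 and called peaks with MACS2 2.1.0, per the submitters' processing notes. They deposited 1 peak list per library, from single replicates with no control library, keeping peaks with p up to 0.01 and at most 300000 of them. Each deposited peak has a fold ratio over the local background and the −log10 p and −log10 q of the same test, and column 10 gives the summit. The fold ratio and −log10 p were solved together for the pileup (tolerance 0.01). The lists hold no read counts, so depth is known only from the lowest background and no model across features was fitted. 2 peaks of H4K12bu replicate 2 gave the summit as a chromosome position and were converted. No window is printed for DSEL, RAD54B, TP53I3 and IP6K2.

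Peaks were merged and matched to GENCODE 44 gene starts as the report states, and the steps were tested on simulated intervals against bedtools 2.31.1. Positions are GRCh38, counted from 1, and no peak ran past a chromosome end. Marks were compared over libraries by exact permutation tests. Mouse genes came from the RefSeq table of GRCm38.p6 by symbol, with none of its coordinates given. The mouse libraries came from large intestine, 2 each for H3K18ac, H4K12ac, H3K18bu and H4K12bu.

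Named genes are the 5 highest scores and 3 widest regions per class, up to 4 highest scores and 3 genes without a region per list, genes the study follows, and regions nearest the 1 kb limit; examples beyond these were chosen after their values were seen. The regions and gene lists were chosen with earlier results of these data known. Alternatives were other windows, q thresholds, 100000 strongest peaks, single replicates, other starts and summits, and other sequence windows. Scripts ran in Python 3.11.15 with pysam 0.24.0, scipy 1.17.1, pandas 2.3.3 and numpy 2.4.6.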

Additional observations from a re-analysis of the deposited data

How the results depend on the processing

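With same-numbered libraries of the marks paired (a replicate block added after seeing the data), the differences were 1.94 points for regions at starts, 1.87 points for summits downstream and −6.25 bases for summit distance. They were 1.47 and 2.42, 2.64 and 1.11, and 12 and −24.5 in the 2 pairs, and exact sign flips gave p = 0.5, 0.5 and 1, where 0.5 is the smallest possible. The labels do not say that a number ties 2 libraries to 1 culture. The 2 libraries per mark, and the depth of H4K12bu replicate 2, limit every statement on H4K12bu. Promoter regions fell to 2999 and genes with a region to 3346 when only the 100000 strongest peaks of each library entered, with a median width of 606 bp, and starts of every protein-coding transcript gave 11758 regions. Leaving out 1 replicate, its partner then calling the mark, gave between 8256 and 10889 regions, between 8109 and 9589 genes and median widths of 301 to 434 bp. Without H3K18bu replicate 1 there were 10889 regions, 8149 of them H3K18bu only; without H4K12bu replicate 1 there were 3176 with H4K12bu only and without H4K12bu replicate 2 there were 2203, against 740. The H4K12bu only share at starts minus elsewhere was −22.7 points and stayed negative: −23.8 and −14.9 with windows of 0.5 and 3 kb, −18.6 and −11.8 with q below 0.05 and 0.01, −9.69 with every transcript start, and −33.5 to −11.8 without 1 replicate. With q below 0.01 only 240 H4K12bu only regions were left.

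The difference between the marks in the share of summits downstream turned from 1.87 to −3.64 points with every transcript start, and lay between 1.42 and 2.33 without 1 library. The difference in median summit distance turned from −6.25 to 4 bases with q below 0.01, 3 with every summit within 1 kb and 12 without H4K12bu replicate 2 (range −24.5 to 12 without 1 library). It grew to −74.5 bases with every transcript start and −36.5 with the summit nearest the start, where the marks did not overlap (exact permutation, p = 0.333 for each, the smallest possible, against p = 1). The cause of these changes was not tested. The mouse difference was 5.37 ± 4.05 points (SD, n = 8) with q below 0.05 and 13.3 with RefSeq starts, the latter added after seeing the data, as were all alternatives for the H4K12bu only share. The CpG difference between genes with and without a region kept its direction in every alternative run, but that between H4K12bu only genes and genes without a region turned from −0.049 to 0.016 without H4K12bu replicate 2, also added after seeing the data. The CCAAT difference turned from 2.14 to −0.891 points with 500 bases either side.

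Of the 33 gene lists 15 were above the background. Without H4K12bu replicate 2 (background 40.5%) the endothelial and immune lists went to −0.478 points, KLF and SP factors to −1.59, acyltransferases to −3.64, endosome to lysosome to 2.38 and liver proteins to 3.97, while proteasome subunits went from 13.8 to 28.8 and deacetylases from 6.26 to 18.3. With q below 0.01 (background 32.6%) the endothelial list went to −2.57, immune to −12.6, acyltransferases to −0.992, mesenchymal to 2.21 and endosome to lysosome to 0.762. The lists of AP-1, ER protein processing, H3K9 and aminoacyl-tRNA synthetase genes stayed above the background in both.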
